A study of Mus musculus with 6 samples.

Results

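The genes described here are 46 chemokines and chemokine receptors of the mouse, 32 ligands and 14 receptors, out of 18460 genes listed in at least 1 of 6 breast tumors. They were chosen by name, as members of these families, with earlier results of these data known. All 46 were listed in at least 1 tumor, and 30 of them (22 ligands and 8 receptors) had enough reads to be tested. Bulk RNA sequencing was done on 3 test tumors from K14-TSLPtg;PyMTtg;Rag1KO mice and 3 control tumors from PyMTtg;Rag1KO mice, all on the Balb/c strain. Every mouse carried the PyMT oncogene, whose MMTV promoter makes the mammary epithelium form tumors without further treatment, and lacked Rag1, so that the host had no T or B cells of its own. All of them received CD4+ T cells at 4 wk of age, and tumors were taken at the endpoint, between weeks 18 and 20. The difference between the groups was the TSLP transgene, whose K14 promoter drives thymic stromal lymphopoietin in keratinocytes. Each tumor came from a different mouse.

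Chemokines are small secreted proteins that draw leukocytes along a gradient by binding receptors with 7 membrane-spanning helices, which signal through G proteins. They are named by the spacing of their first cysteines as CC, CXC, CX3C and XC ligands, and their receptors are named after the ligands. CCL11 and CCL24 draw eosinophils through CCR3, and CCL17 and CCL22 draw T helper type 2 cells through CCR4. These 4 are called type 2 ligands here, since IL-4 and IL-13 are known to induce them and TSLP is known for starting responses of that kind in barrier tissues. The question put to the tumors was whether TSLP, in mice whose only T cells were CD4+, left a mark on these genes.

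The ligands with the highest level per length were *Cxcl14*, the CC ligand *Ccl8*, and *Cxcl16* and *Cx3cl1*, also made as membrane-bound forms. Their mean FPKM (fragments scaled to gene length and sequencing depth, as deposited) over the 6 tumors was 45.3 ± 23.1 (SD, n = 6), 29.3 ± 31.5, 24.4 ± 5.63 and 23.9 ± 6.79. *Cxcl17* followed at 22.3 ± 21.0, *Cxcl13* at 15.2 ± 16.9, *Cxcl12* at 14.7 ± 5.5 and *Ccl6* at 14.7 ± 12.8. None of these neighbors in the order was separated from the next by more than its SD. The receptor with the highest mean FPKM was *Cx3cr1*, the fractalkine receptor of monocytes and macrophages, at 13.4 ± 7.29. *Cxcr4*, the CXCL12 receptor, stood at 11.7 ± 6.37, *Cxcr2*, a neutrophil receptor, at 9.16 ± 4.53, and *Ackr3*, an atypical receptor that takes up CXCL12, at 8.57 ± 3.94. At the other end, *Ccr3*, the eosinophil receptor, had a mean FPKM of 0.005 and 1 read in all. The type 2 ligands were spread over this order, with *Ccl11* in place 16 at 7.22 ± 4.97, *Ccl17* in place 28 at 1.89 ± 1.54, *Ccl22* in place 36 at 0.307 ± 0.138 and *Ccl24* in place 37 at 0.28 ± 0.197.

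**Figure D1:**
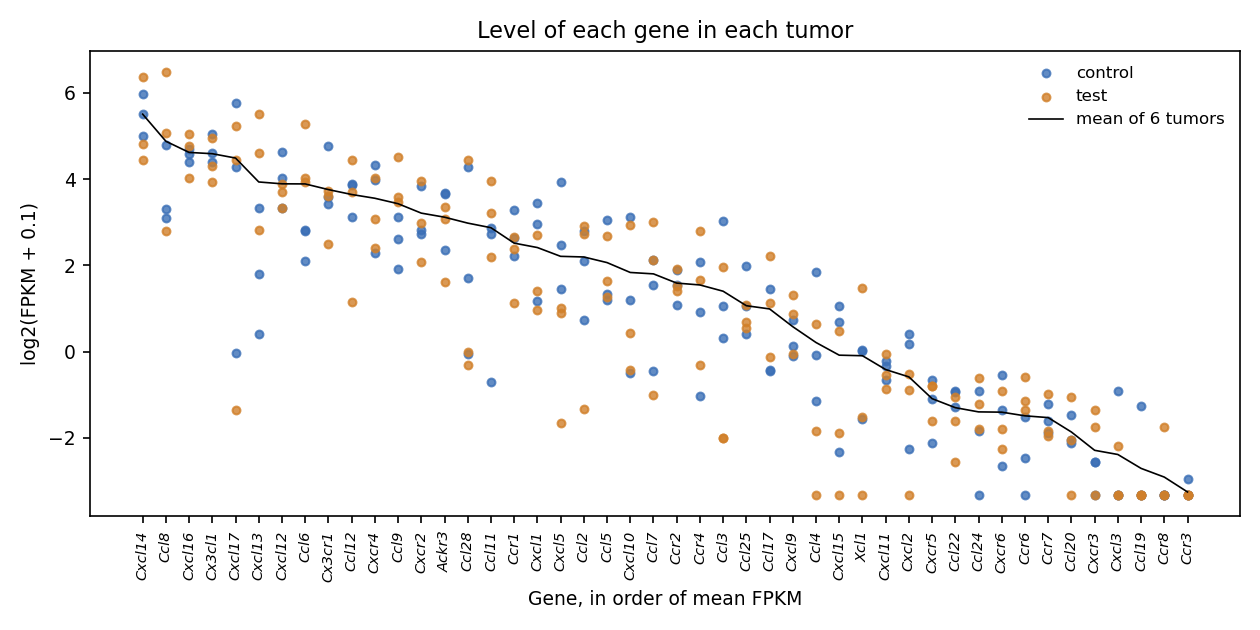
Level of the 46 genes in order of mean FPKM, as log2(FPKM + 0.1), with 1 point for each of the 3 control and 3 test tumors. *Cxcl14*, *Cxcl16* and *Cx3cl1* lie high in every tumor, *Cxcl17*, *Ccl28* and *Cxcl13* are spread widely within a group, and *Ccl19*, *Ccr3* and *Ccr8* lie near the bottom.

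Summed over the 32 ligands, the FPKM was 213.4, 243.3 and 260.6 in control replicates 1 to 3 and 259.8, 389.6 and 227.9 in test replicates 1 to 3. These sums overlapped between the groups. The ligand at the top was *Cx3cl1* in control replicate 1, *Cxcl14* in control replicates 2 and 3, *Cxcl13* in test replicate 1 and *Ccl8* in test replicates 2 and 3. *Ccl6* and *Ccl9* together took 3.68%, 6.39% and 4.94% of the sum in the control tumors and 10.4%, 15.8% and 11.9% in the test tumors. Summed receptor FPKM overlapped, at 54.89, 46.11 and 84.74 in the control tumors and 31.75, 72.83 and 42.25 in the test tumors.

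In edgeR, the comparison of test with control tumors called none of the 30 tested members, while DESeq2 called 1. With edgeR's quasi-likelihood test and Benjamini-Hochberg adjustment over 13706 genes, 0 genes of any kind (0%) had an adjusted p of 0.05 or less, and the lowest adjusted p was 0.394. DESeq2 called 343 of 14451 genes (2.37%), 1 of them a member, *Ccl6*, at an adjusted p of 0.00724. At an unadjusted p under 0.05, edgeR found 1153 genes (8.41%) in all, 432 (3.15%) higher and 721 (5.26%) lower in the test tumors. Among the 30 tested members there were 4 at that level (13.3%), with *Ccl6*, *Ccl9* and *Cxcl13* higher and *Cxcl5* lower. The values of the 3 tumors of a group did not overlap those of the other group for 1642 genes (12.0%), 839 (6.12%) with the test tumors higher and 803 (5.86%) with them lower. Of the 30 members 3 did not overlap, *Ccl6* and *Ccl9* higher and *Cxcl5* lower. The share of members without overlap was thus no higher than that of all genes, and the share at an unadjusted p under 0.05 rested on 4 genes. By direction alone, 13 of the 30 members were higher and 17 lower, with a median log2 fold change of -0.03, beside 7058 of 13706 genes (51.5%) higher and a median of 0.02 over all tested genes. The 22 tested ligands (9 higher, 13 lower) had a median of -0.03, and the 8 tested receptors (4 higher, 4 lower) a median of -0.19.

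**Figure D2:**
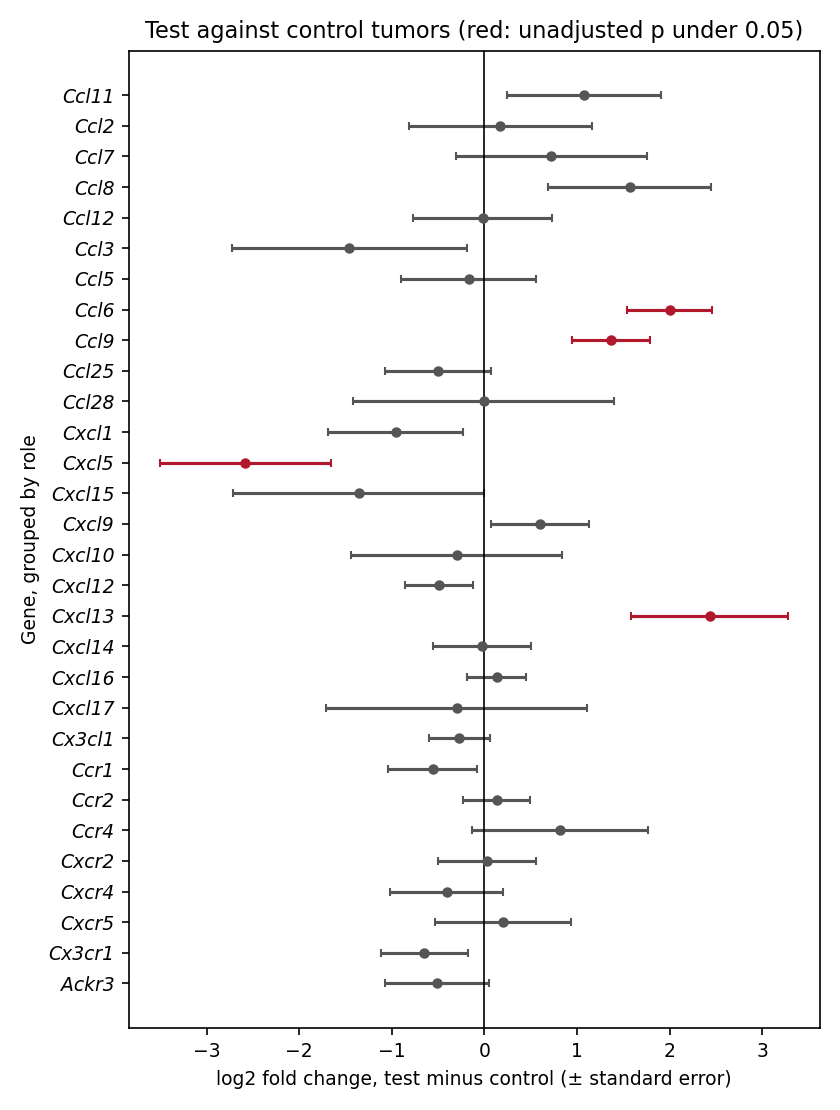
Log2 fold change of test against control tumors for the 30 tested genes, grouped by role, with bars of 1 standard error from edgeR's quasi-likelihood fit of 3 against 3 tumors. Red marks an unadjusted p under 0.05, and the 4 red genes run from *Cxcl5* at -2.58 to *Cxcl13* at 2.43.

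The library totals ran from 8373390 to 9449565 expected counts, and 3 counts, taken as the floor in a tumor, were worth between 0.317 and 0.358 CPM (counts scaled to the size of the library). In what follows CPM is scaled by TMM library sizes and is compared between tumors and not between genes, sums over marker genes are likewise read between tumors, and SD is over 3 tumors. Control replicate 2 stood apart from its group, since its log2 expression across genes correlated at most at 0.902 with another control tumor and at 0.916 or more with each test tumor. Without it, 182 of 14166 genes (1.28%) were called at an adjusted p of 0.05 or less, none of them a member, and 2020 (14.3%) had an unadjusted p under 0.05. Summed epithelial markers (6 of 6 listed) were higher in every test tumor, at 4810 to 5220 CPM against 1640 to 3700 CPM in the control tumors. Summed macrophage markers (8 of 8 listed) overlapped, at 346 to 830 CPM in the test and 373 to 797 CPM in the control tumors. Skeletal muscle markers ran from 82.2 to 897 CPM in the test and from 4.69 to 169 CPM in the control tumors, and adipocyte markers from 1.7 to 233 CPM and from 0.347 to 6.49 CPM. Their part in the results was not tested. *Tslp* itself held 2, 2 and 3 counts in the control tumors and 12, 7 and 2 counts in the test tumors, so its reads did not separate the groups. *Krt14*, the gene of the transgene's promoter, had 15.6, 57.3 and 101 CPM in the control and 43.7, 119 and 117 CPM in the test tumors. Whether the transgene was read within the tumors was not tested. *Rag1* kept 27, 4 and 10 counts in the control and 6, 12 and 9 counts in the test tumors, and a count over the whole gene cannot show whether a deleted part was read.

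*Ccl6* and *Ccl9*, a pair of CC ligands of the mouse made mainly by macrophages and other myeloid cells and bound by CCR1, were higher in every test tumor than in any control tumor. *Ccl6* (chr11, 83587886 to 83593087, GRCm38) had 6.37, 9.63 and 9.48 CPM in control replicates 1 to 3 and 20.9, 58.2 and 23.0 CPM in test replicates 1 to 3. The 3 control tumors lay close together, and each test tumor lay above all of them, with test replicate 2 far above the other two. The means were 8.49 ± 1.84 and 34.0 ± 21.0 CPM (SD, n = 3), and the log2 fold change was 2.00 with a standard error of 0.46 and an adjusted p of 0.394 by edgeR. The unadjusted p of 0.0029 put *Ccl6* in place 85 of 13706 genes, and a two-sided exact permutation p was 0.1, the smallest that 3 against 3 tumors allow. Without test replicate 2 its log2 fold change was 1.37, and without any other single tumor it lay between 1.82 and 2.25. In bulk tissue fewer cells of a type and less RNA per cell cannot be told apart, which holds for every gene described here.

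*Ccl9* (chr11, 83572917 to 83578636) lies next to *Ccl6* in the CC cluster of chromosome 11. It had 11.9, 24.9 and 17.6 CPM in the control tumors and 34.9, 72.6 and 33.4 CPM in the test tumors. As for *Ccl6*, the groups did not overlap and test replicate 2 was the highest. The means were 18.1 ± 6.49 and 47.0 ± 22.2 CPM, with a log2 fold change of 1.37, a standard error of 0.42 and an adjusted p of 0.454 by edgeR, an unadjusted p of 0.0122 and an exact permutation p of 0.1. Of the 3015 stretches of 31 bases in its annotated transcripts, 3.75% also occur in another gene, against 1.02% for *Ccl6*. Set against the summed macrophage markers of the same tumor, *Ccl6* CPM came to 1.17%, 2.58% and 1.19% in the control tumors and 6.04%, 7.01% and 4.82% in the test tumors. *Ccl9* came to 2.19%, 6.66% and 2.21% of the same sum in the control tumors and 10.1%, 8.75% and 6.99% in the test tumors. Both genes, already without overlap in CPM, stayed so on this scale. For *Ccl9* this was narrow, at 6.66% in control replicate 2 and 6.99% in test replicate 3. *Ccl8*, *Ccl12*, *Cx3cr1*, *Ccr1* and *Ccr2* overlapped. The share of all genes without overlap on this scale was not computed, and the part of macrophages in these values was not tested.

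*Cxcl13*, the ligand of CXCR5 that draws B cells and follicular helper T cells, had the highest log2 fold change of the 30 tested members. Its levels (chr5, 95956939 to 95961068) were 1.5, 10.9 and 3.73 CPM in the control tumors and 50.4, 29.1 and 7.96 CPM in the test tumors. Test replicates 1 and 2 stood above all control tumors, but test replicate 3 lay below control replicate 2. The means of 5.39 ± 4.92 and 29.1 ± 21.2 CPM gave a log2 fold change of 2.43 with a standard error of 0.85, an adjusted p of 0.491 by edgeR and an exact permutation p of 0.2. Without control replicate 2 the log2 fold change was 3.46 and its adjusted p by edgeR 0.133, the lowest of any member in that fit. *Cxcr5*, its receptor, held 3 to 13 counts in each tumor, with a log2 fold change of 0.20.

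*Cxcl5*, a ligand of CXCR2 that draws neutrophils and is often made by epithelium, was the one tested member lower in all test tumors. It had 26.7, 4.22 and 8.63 CPM in the control tumors (chr5, 90759298 to 90761625) and 0.346, 3.05 and 3.18 CPM in the test tumors. Control replicate 1 was far above the rest, and control replicate 2 stood only just above test replicates 2 and 3. The means were 13.2 ± 11.9 and 2.19 ± 1.60 CPM, with a log2 fold change of -2.58, a standard error of 0.92, an adjusted p of 0.506 by edgeR and an exact permutation p of 0.1. Without control replicate 1 the log2 fold change was -1.55 with an unadjusted p of 0.123 in edgeR. Summed neutrophil markers (6 of 7 listed, *Ly6g* not listed, *Cxcr2* among them) were 116 CPM in control replicate 1, 65.3 and 59.3 CPM in the other control tumors, and 26.1, 70.1 and 63.9 CPM in the test tumors. Without *Cxcr2*, the other 5 listed markers summed to 94.1, 23.7 and 38.7 CPM in the control tumors and 13.95, 20.5 and 39.9 CPM in the test tumors. Both sums overlapped between the groups. All 4 tested markers other than *Cxcr2* had negative log2 fold changes, from -1.43 for *Csf3r* to -0.47 for *S100a8*. None had an unadjusted p under 0.05 in edgeR, and *Cxcr2* had a log2 fold change of 0.03. *Mmp8* alone did not overlap in CPM, at -1.08, but control replicate 3 and test replicate 3 held 13 counts each (1.385 and 1.379 CPM). The part of these cells in the *Cxcl5* values was not tested.

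**Figure D3:**
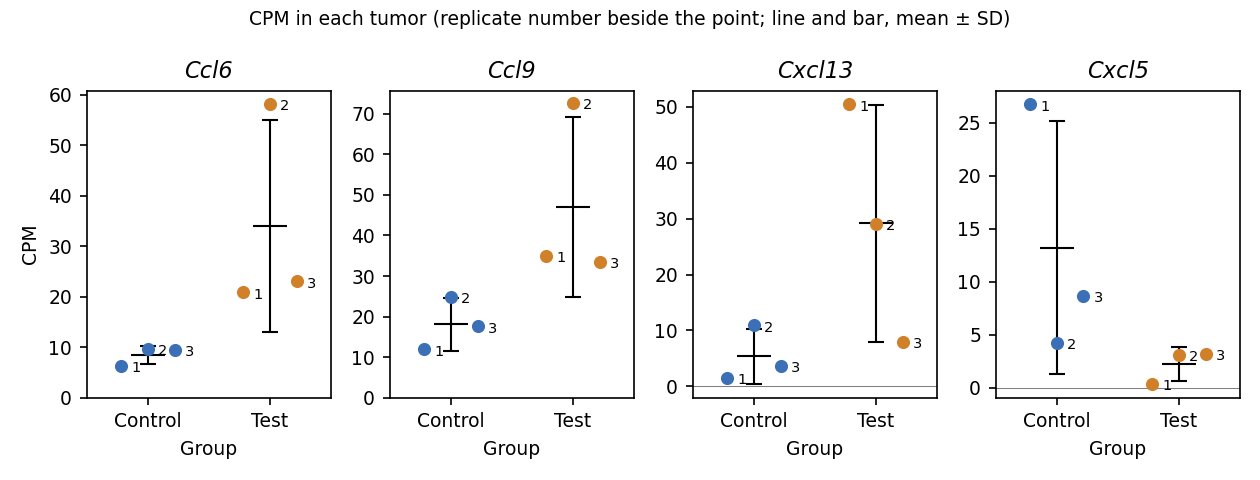
CPM of *Ccl6*, *Ccl9*, *Cxcl13* and *Cxcl5* in each tumor, with the replicate number beside each point and the mean ± SD (n = 3) as line and bar. Groups do not overlap for *Ccl6*, *Ccl9* and *Cxcl5*, while for *Cxcl13* control replicate 2 at 10.9 CPM lies above test replicate 3 at 7.96 CPM.

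The sequences just before the transcription start of the 3 members that were higher at an unadjusted p under 0.05 are shown to set them side by side. They are the 250 bases upstream of the start (RefSeq, GRCm38.p6), written 5′ to 3′ on the gene's strand. Capitals mark matches to the motifs searched on both strands, which were GGG and TTCC with 3 bases of any kind between them (NF-kappaB type), TTC and GAA with 4 bases between them (STAT6 type) or 3 bases (GAS), GAAA repeated after 2 bases (ISRE), and, for the TATA box, the letters TATAAA. *Ccl6* is at chr11:83593088-83593337 (minus strand), *Ccl9* at chr11:83578637-83578886 (minus strand) and *Cxcl13* at chr5:95956689-95956938 (plus strand).
Ccl6: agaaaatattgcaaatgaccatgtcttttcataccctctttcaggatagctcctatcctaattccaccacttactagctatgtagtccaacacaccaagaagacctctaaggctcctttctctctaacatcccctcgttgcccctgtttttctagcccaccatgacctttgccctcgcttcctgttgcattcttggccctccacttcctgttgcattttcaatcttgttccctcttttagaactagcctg
Ccl9: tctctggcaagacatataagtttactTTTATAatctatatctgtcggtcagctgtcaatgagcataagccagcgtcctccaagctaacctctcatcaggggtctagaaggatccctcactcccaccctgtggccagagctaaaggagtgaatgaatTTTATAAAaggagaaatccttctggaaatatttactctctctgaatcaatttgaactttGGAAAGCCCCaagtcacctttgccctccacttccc
Cxcl13: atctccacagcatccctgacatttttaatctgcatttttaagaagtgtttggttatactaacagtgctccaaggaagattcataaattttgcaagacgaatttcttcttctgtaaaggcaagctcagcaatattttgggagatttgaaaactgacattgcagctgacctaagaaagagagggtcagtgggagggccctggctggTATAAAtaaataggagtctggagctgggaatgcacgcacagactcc
The *Ccl6* window held none of these motifs. The *Ccl9* window held an NF-kappaB type match starting 35 bases before the start and TATA boxes at 224, 94 and 92 bases, the last pair overlapping on opposite strands. *Cxcl13* held a TATA box at 46 bases. Windows were found for 34 of the 46 genes (36 windows), and *Cxcl5*, *Ccl11* and *Ccl24* were among those without one. The NF-kappaB type motif was in 8 of these 36 windows (22.2%) and in 4.65% of 32851 windows of all genes, the TATA box in 30.6% and 12.4%. The STAT6 type motif was in 1 window (2.78% against 5.85%), and GAS and ISRE were in 3 windows each (8.33% against 7.02% and 2.98%). A match is a stretch of letters and not a bound site.

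Of the type 2 ligands, only *Ccl11* (eotaxin) had enough reads for a test, and it overlapped between the groups. *Ccl11* (chr11, 82057832 to 82062955) had 0.579, 7.35 and 6.61 CPM in the control tumors and 15.7, 10.3 and 4.78 CPM in the test tumors. Test replicates 1 and 2 were the highest of the 6 tumors, test replicate 3 lay under control replicates 2 and 3, and control replicate 1 was the lowest. The means of 4.85 ± 3.72 and 10.2 ± 5.45 CPM gave a log2 fold change of 1.07 with a standard error of 0.83, an adjusted p of 0.76 by edgeR and an exact permutation p of 0.3. The log2 fold change was 0.55 to 1.5 when 1 tumor at a time was left out.

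*Ccl17* (chr8, 94809380 to 94812038) held 3, 12 and 3 counts in the control tumors and 9, 20 and 4 counts in the test tumors. Its neighbor *Ccl22* (chr8, 94745684 to 94751388) held 7, 5 and 7 counts in the control and 1, 6 and 4 counts in the test tumors. *Ccl24* (chr5, 135569935 to 135573123) held 0, 2 and 5 counts in the control and 2, 6 and 4 counts in the test tumors. Each of these overlapped between the groups and lay near the floor of 3 counts in some tumor. In the fit without a filter on low counts their log2 fold changes were 0.94, -0.72 and 0.82 with standard errors of 0.96, 0.94 and 1.21, and edgeR's adjusted p was 0.776, 0.829 and 0.85. No difference in these 3 genes was detectable at this depth. Together the 4 type 2 ligands took 0.731%, 4.25% and 3.06% of the summed ligand FPKM in the control tumors and 6.82%, 3.77% and 2.58% in the test tumors, which overlapped. The other 29 tested members (12 higher, 17 lower) had a median log2 fold change of -0.03, against the single value of 1.07 for *Ccl11*, and this difference was not tested.

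**Figure D4:**
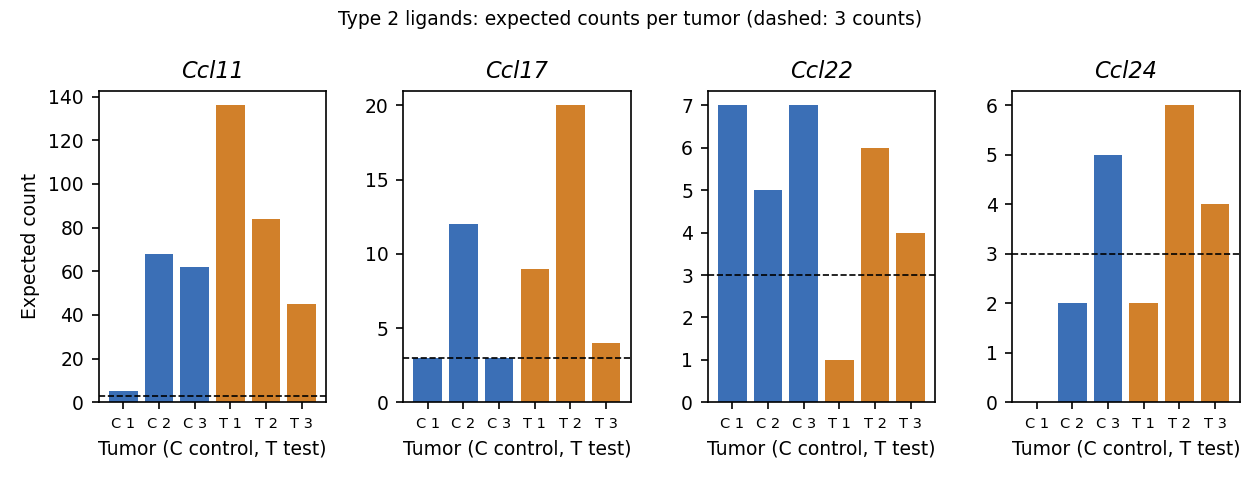
Expected counts of *Ccl11*, *Ccl17*, *Ccl22* and *Ccl24* in each of the 6 tumors, with the floor of 3 counts dashed and a scale of its own for each gene. The tumors with the most reads are test replicate 1 for *Ccl11* (136 counts) and test replicate 2 for *Ccl17* (20 counts), and *Ccl22* does not pass 7 counts.

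For *Ccl17* and *Ccl22*, which IL-4 is known to induce through STAT6, the 250 bases before a transcript start are shown. The STAT6 type motif can thus be looked for in both. The *Ccl22* window ends just before the gene's first base, but the *Ccl17* window lies inside the annotated interval of the gene, before a transcript start within it. *Ccl17* is at chr8:94810203-94810452 and *Ccl22* at chr8:94745434-94745683, both on the plus strand.
Ccl17: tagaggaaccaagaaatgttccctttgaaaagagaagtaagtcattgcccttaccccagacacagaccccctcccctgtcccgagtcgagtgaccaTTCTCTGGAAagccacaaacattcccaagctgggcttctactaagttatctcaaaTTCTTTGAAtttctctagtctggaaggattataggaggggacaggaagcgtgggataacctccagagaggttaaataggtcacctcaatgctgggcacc
Ccl22: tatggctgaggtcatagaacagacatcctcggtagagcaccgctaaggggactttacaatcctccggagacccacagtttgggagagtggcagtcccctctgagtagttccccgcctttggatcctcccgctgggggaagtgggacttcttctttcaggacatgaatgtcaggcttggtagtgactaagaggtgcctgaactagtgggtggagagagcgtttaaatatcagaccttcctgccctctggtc
The STAT6 type motif started 154 bases before that internal *Ccl17* start and a GAS 99 bases before it, and the 2 motifs differ by 1 base of spacing. The *Ccl22* window held neither, which says only that these letters are not in this window.

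Of the receptors of these ligands, only *Ccr4* had enough reads for a test. *Ccr4*, the receptor of CCL17 and CCL22, had 1.16, 4.76 and 11.3 CPM in the control tumors and 8.30, 20.1 and 2.02 CPM in the test tumors, and its log2 fold change was 0.82 with a standard error of 0.95. Its levels ran 17.4-fold from control replicate 1 to test replicate 2 and overlapped between the groups. Which cells gave the *Ccr4* reads was not tested. *Ccr3*, the CCL11 and CCL24 receptor, held 1 count over all 6 tumors, and *Ccr8*, another receptor of type 2 T cells, held 2 counts, both in test replicate 2. Summed T cell markers (7 of 8 listed, *Trac* not listed) lay between 5.08 and 7.99 CPM in the control and between 5.19 and 9.64 CPM in the test tumors. Eosinophil markers (3 of 5 listed, *Prg2* and *Epx* not listed) summed to between 2.54 and 6.39 CPM over the 6 tumors. Most of this sum was *Il5ra*, at 2.31 to 5.11 CPM. *Siglecf* had reads only in control replicate 3 (12 counts) and test replicate 1 (2 counts). The paper found the protein of *Il5ra* on mouse breast tumor cells as well. The sum therefore cannot be read as a level of eosinophils, and which cells gave these reads was not tested.

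The ligands named as monocyte chemoattractant proteins, *Ccl2*, *Ccl7*, *Ccl8* and *Ccl12*, sit with *Ccl11* on chromosome 11 between 82035577 and 82116799. All 4 were tested, 3 were higher and 1 lower in the test tumors, and their median log2 fold change was 0.44. *Ccl8*, which had the highest level per length of these 4, had 4.40, 4.65 and 13.0 CPM in the control tumors and 3.23, 46.0 and 16.6 CPM in the test tumors. Test replicate 2 was far above the rest, and test replicate 1 was the lowest of all 6. The means of 7.35 ± 4.89 and 21.9 ± 21.9 CPM gave a log2 fold change of 1.57 with a standard error of 0.88, an adjusted p of 0.689 by edgeR and an exact permutation p of 0.6. Without test replicate 2 the log2 fold change was 0.44. *Ccl2*, the main monocyte attractant, *Ccl7* and *Ccl12* had log2 fold changes of 0.17, 0.72 and -0.02. For each of these, test replicate 1 had the lowest level, with 0.231 CPM for *Ccl2*, 0.346 for *Ccl7* and 1.04 for *Ccl12*, against highest levels of 6.10, 7.45 and 11.0 CPM in test replicate 2, 2 and 3.

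The cluster around *Ccl6* and *Ccl9*, between 83525778 and 83664683 on chromosome 11, also holds *Ccl5*, *Ccl3* and *Ccl4*, which draw T cells, monocytes and NK cells. Their values overlapped between the groups. *Ccl3* had 6.71, 0.865 and 1.49 CPM in the control tumors and 0.115, 0.122 and 2.97 CPM in the test tumors, and its log2 fold change was -1.46 with a standard error of 1.27 and an adjusted p of 0.784 by edgeR. Control replicate 1 was the highest, and test replicates 1 and 2 were under the floor of 3 counts. Without control replicate 1 the log2 fold change was -0.12, and without test replicate 3 it was -4.5 with an adjusted p of 0.629 by edgeR. *Ccl4*, whose annotated interval overlaps that of *Ccl3*, was not tested and held 21, 2 and 5 counts in the control and 0, 1 and 9 counts in the test tumors. *Ccl5* had 4.86, 1.30 and 1.17 CPM in the control and 1.61, 1.34 and 3.50 CPM in the test tumors, and its log2 fold change was -0.17. The 4 tested genes of this role had a median log2 fold change of 0.60, with 2 higher and 2 lower.

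Of the lymphoid and mucosal CC ligands, *Ccl28*, made by mucosal and glandular epithelium including the mammary gland, varied widely. It had 3.47, 11.7 and 71.0 CPM in the control tumors (chr13, 119623819 to 119654359) and 79.2, 2.81 and 3.40 CPM in the test tumors. Each group held 1 tumor with a level far above its others, control replicate 3 and test replicate 1. The means of 28.7 ± 36.8 and 28.5 ± 44.0 CPM gave a log2 fold change of -0.01 with a standard error of 1.41, an adjusted p of 0.998 by edgeR and an exact permutation p of 0.7. Leaving out test replicate 1 took the log2 fold change to -3.20 and leaving out control replicate 3 took it to 1.90. *Ccl25*, the CCR9 ligand of thymus and gut, had 1.38 to 4.00 CPM and a log2 fold change of -0.50. *Ccl19*, the CCR7 ligand of lymph nodes, held 2 counts in all, and 58.8% of its 31-base stretches also occur in another gene, so its count is uncertain. *Ccl20*, which draws CCR6-bearing cells, held at most 3 counts in a tumor.

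The 3 tested neutrophil-attracting CXC ligands had negative log2 fold changes with a median of -1.36, and among them only *Cxcl5* had an unadjusted p under 0.05 or groups without overlap. The 4 tested neutrophil markers other than *Cxcr2*, given beside *Cxcl5*, had the same sign, while *Cxcr2* was at 0.03. The part of these markers here was not tested either. *Cxcl1* (chr5, 90891245 to 90893121), a main CXCR2 ligand and the one with the highest level per length in this role, had 10.9, 1.95 and 7.03 CPM in the control and 2.31, 1.83 and 6.05 CPM in the test tumors. Control replicate 2 was nearly as low as test replicate 2, so the groups overlapped. The means of 6.62 ± 4.48 and 3.40 ± 2.31 CPM gave a log2 fold change of -0.96 with a standard error of 0.73, an adjusted p of 0.76 by edgeR and an exact permutation p of 0.3. *Cxcl15*, known from lung epithelium, ran from 0 to 4.51 CPM with a log2 fold change of -1.36, which was -3.79 without test replicate 1 and -0.72 without control replicate 1. *Cxcl2* held 12, 1 and 10 counts in the control and 0, 4 and 6 counts in the test tumors, and *Cxcl3* held 4, 0 and 0 and 1, 0 and 0 counts. These 2 genes share 161 of their 31-base stretches, so reads could be split between them. *Cxcr2*, the receptor of this group, had 21.5, 41.6 and 20.7 CPM in the control and 12.1, 49.6 and 24.0 CPM in the test tumors, and its log2 fold change was 0.03. Of its 31-base stretches, 7.7% also occur in another gene, and which cells gave its reads was not tested.

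The interferon-induced ligands of CXCR3, which draw T helper type 1 cells, CD8+ T cells and NK cells, overlapped between the groups. *Cxcl10* (chr5, 92346638 to 92348889) had 10.1, 0.649 and 2.34 CPM in the control tumors and 0.692, 1.47 and 8.38 CPM in the test tumors. Control replicate 1 and test replicate 3 were high and the other 4 tumors low. The means of 4.35 ± 5.02 and 3.51 ± 4.24 CPM gave a log2 fold change of -0.30 with a standard error of 1.14, an adjusted p of 0.956 by edgeR and an exact permutation p of 0.8. *Cxcl9* ran from 2.42 to 7.0 CPM with a log2 fold change of 0.60. *Cxcl11* held between 6 and 13 counts in each tumor and *Cxcr3* at most 4. The 250 bases upstream of *Cxcl10* (chr5:92348890-92349139, minus strand) are shown because both kinds of interferon and inflammatory motif can be read in them, an ISRE at 213 bases and NF-kappaB type matches at 159 and 104 bases before the start.
Cxcl10: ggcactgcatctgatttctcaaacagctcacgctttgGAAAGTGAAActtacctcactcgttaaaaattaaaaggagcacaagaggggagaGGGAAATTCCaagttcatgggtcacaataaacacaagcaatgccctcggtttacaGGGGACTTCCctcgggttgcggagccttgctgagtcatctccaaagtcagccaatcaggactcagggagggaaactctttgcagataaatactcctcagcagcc

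*Cxcl14*, the ligand with the highest level per length, gave almost the same mean in both groups. Its levels were 63.2, 111 and 81.3 CPM in the control tumors (chr13, 56288643 to 56296811) and 50.2, 159 and 40.2 CPM in the test tumors. The test tumors held both the highest and the 2 lowest values. The means of 85.0 ± 23.9 and 83.2 ± 66.0 CPM gave a log2 fold change of -0.03 with a standard error of 0.53, an adjusted p of 0.99 by edgeR and an exact permutation p of 0.7. The near-equal means rested on test replicate 2. Without it the log2 fold change was -0.91, with an unadjusted p of 0.0261 and an adjusted p of 0.591 in edgeR. *Cxcl12*, the stromal ligand of CXCR4, had 37.7, 20.4 and 51.5 CPM in the control and 30.3, 21.6 and 25.9 CPM in the test tumors. Its log2 fold change was -0.49 with a standard error of 0.37, and without control replicate 2 it was -0.78 with an adjusted p of 0.299 by edgeR. *Cx3cl1* (fractalkine) had 111, 63.9 and 73.9 CPM in the control and 93.9, 50.5 and 62.5 CPM in the test tumors, and its log2 fold change was -0.27. *Cxcl16*, the CXCR6 ligand, ran from 38.6 to 80.6 CPM with a log2 fold change of 0.13.

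*Cxcl17*, a mucosal chemokine, ran 182-fold from 0.212 CPM in test replicate 3 to 38.7 CPM in control replicate 2. It had 0.694 and 13.9 CPM in control replicates 1 and 3 and 26.5 and 16.7 CPM in test replicates 1 and 2, with a log2 fold change of -0.30 and a standard error of 1.41. Each group thus held 1 tumor with 6 counts or fewer. *Xcl1*, made by activated T and NK cells, held 4, 1 and 4 counts in the control and 1, 11 and 0 counts in the test tumors.

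The tested receptors had log2 fold changes from -0.65 for *Cx3cr1* to 0.82 for *Ccr4*, and no tested receptor had an unadjusted p under 0.05 or groups without overlap. *Cx3cr1* (chr9, 120048683 to 120068296) had 43.2, 43.2 and 99.8 CPM in the control and 20.3, 51.9 and 46.1 CPM in the test tumors. Control replicate 3 was the highest and test replicate 1 the lowest. The means of 62.1 ± 32.7 and 39.4 ± 16.8 CPM gave a log2 fold change of -0.65 with a standard error of 0.47, an adjusted p of 0.745 by edgeR and an exact permutation p of 0.6.

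*Ccr1*, the receptor of CCL6, CCL9 and CCL3 on myeloid cells, had 18.6, 12.6 and 26.3 CPM in the control tumors (chr9, 123962126 to 123968692) and 5.77, 15.4 and 17.7 CPM in the test tumors. The groups overlapped, and test replicate 1 was again the lowest. The means of 19.2 ± 6.90 and 13.0 ± 6.34 CPM gave a log2 fold change of -0.56 with a standard error of 0.48, an adjusted p of 0.784 by edgeR and an exact permutation p of 0.4. *Ccr2*, the receptor of inflammatory monocytes, ran from 7.75 to 14 CPM with a log2 fold change of 0.13, and 3.41% of its 31-base stretches occur in another gene. Both receptors thus overlapped between the groups, unlike *Ccl6* and *Ccl9*.

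*Ackr3* (chr1, 90203980 to 90215724) had 28.2, 9.95 and 24.9 CPM in the control and 16.5, 21.9 and 6.05 CPM in the test tumors. Control replicates 1 and 3 were the highest, control replicate 2 was among the lowest, and the groups overlapped. The means of 21.0 ± 9.75 and 14.8 ± 8.04 CPM gave a log2 fold change of -0.51 with a standard error of 0.56, an adjusted p of 0.82 by edgeR and an exact permutation p of 0.5. *Cxcr4* had 30.2, 8.33 and 34.8 CPM in the control and 9.11, 31.0 and 15.3 CPM in the test tumors, and its log2 fold change was -0.41. *Ccr6*, *Ccr7* and *Cxcr6*, found on subsets of T cells and, for *Ccr7*, on migrating dendritic cells, held at most 6, 7 and 10 counts in a tumor and were not tested.

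**Figure D5:**
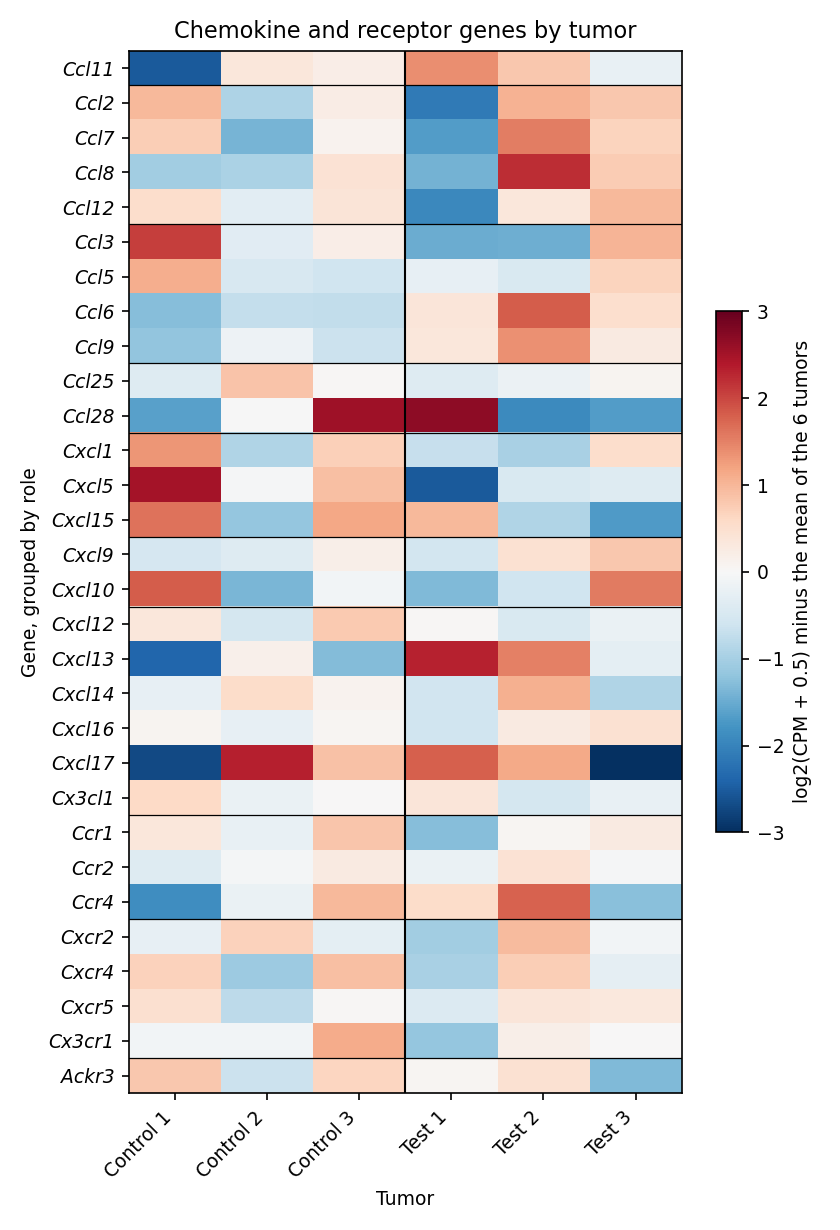
Each tested gene's log2(CPM + 0.5) in the 6 tumors, minus its own mean, grouped by role, with red above and blue below the mean. Test replicate 1 is the lowest tumor for 12 of the 30 genes, and control replicate 1 and test replicate 2 are each the highest for 9.

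The tumors differed in how many members they led. Test replicate 1 had the lowest level for 12 and the highest for 3 of the 30 tested genes, while test replicate 2 had the lowest for 3 and the highest for 9. Control replicate 1 was the highest for 9 and the lowest for 6. Summed macrophage markers followed part of this order, at 346 CPM in test replicate 1, 830 in test replicate 2 and 478 in test replicate 3, and at 544, 373 and 797 in control replicates 1 to 3. Their part in the values was not tested.

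In the wider pathway no gene was called at an adjusted p of 0.05 or less. Of 14 other chemokine and receptor genes listed, 6 were tested, 1 was higher and 5 lower, and none had an unadjusted p under 0.05. The higher one, *Ackr1*, held 0, 7 and 1 counts in the control and 17, 12 and 11 counts in the test tumors. Its groups did not overlap, with a log2 fold change of 2.34, a standard error of 1.02 and an adjusted p of 0.599 by edgeR. Of 13 tested cytokines and factors that are known to induce chemokines, 3 were higher and 10 lower, again none with an unadjusted p under 0.05. Of 27 genes that carry the signal from the receptor, 7 were higher and 20 lower, with a median log2 fold change of -0.23, and 5 had an unadjusted p under 0.05, 1 higher and 4 lower, beside 8.41% of all tested genes (3.15% higher and 5.26% lower) and 51.5% higher at any p. *Arrb1*, the beta-arrestin that turns off and internalizes receptors, had 47.8, 50.8 and 43.8 CPM in the control and 166, 64.7 and 108 CPM in the test tumors. All test tumors lay above all control tumors, and the log2 fold change was 1.25 with a standard error of 0.36 and an adjusted p of 0.438 by edgeR. *Pik3r5*, a regulatory subunit of the PI3K that G proteins activate, had 10.7, 9.95 and 10.9 CPM in the control and 4.27, 3.66 and 5.84 CPM in the test tumors. It lay lower in all test tumors, and the log2 fold change was -1.19 with a standard error of 0.36 and an adjusted p of 0.454 by edgeR. *Tiam1*, a Rac activator, also lay lower in all test tumors, at 57.7, 25.5 and 32.9 CPM against 112, 59.1 and 114 CPM, with a log2 fold change of -1.30 and a standard error of 0.40. So did *Vav1*, narrowly, at 14.4 CPM in test replicate 2 and 14.6 CPM in control replicate 1, with a log2 fold change of -0.98. Of the 27 genes, 1 higher and 3 lower thus had groups without overlap, beside 6.12% and 5.86% of all tested genes. *Dock2*, the Rac activator of leukocytes, overlapped, with 21.9, 13.3 and 26.1 CPM in the control and 8.07, 7.32 and 14.01 CPM in the test tumors and a log2 fold change of -1.06. *Gng2*, a G protein gamma subunit, was high in control replicates 1 and 3 (44.0 and 43.6 CPM), while control replicate 2 had 7.90 CPM and the test tumors 8.76, 11.7 and 8.06 CPM, with a log2 fold change of -1.74.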

How the data were processed

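Tumor RNA of 3 test and 3 control mice was sequenced by BGI on an Illumina platform. The authors deposited, for each gene and tumor, an expected count (not normalized), the FPKM, normalized by the authors for gene length and depth, and the gene length. The submitters' processing notes name Bowtie, BWA, RSEM and mm10, without versions or roles. Genes not listed for a tumor were set to 0. Of 18460 gene identifiers, 18400 were matched to symbols in RefSeq GRCm38.p6.

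Expected counts were rounded and compared with edgeR 4.0.16 under R 4.3.3 (filterByExpr, TMM, quasi-likelihood test of 3 against 3 tumors without covariates, Benjamini-Hochberg over 13706 genes). The SE of a log2 fold change is the fold change over the root of its F statistic. Exact permutation tests used all 20 splits of the tumors, two-sided, on log2(CPM + 0.5). Alternatives were DESeq2 1.42.0, RLE and upper quartile scaling, no filter, a minimum of 10 counts per tumor, limma-trend (limma 3.58.1) on the log2 of FPKM plus 1 or plus 0.1, for genes averaging 0.1 FPKM or more, a block for the replicate number, and leaving out each tumor. Non-overlap on the FPKM as deposited was added after seeing the data. On simulated data with 200 of 13706 genes changed, edgeR called 164 genes, 149 of them changed. DESeq2 called 236, 169 of them changed. The floor of 3 counts covers counting error only, while the SDs and standard errors also take in the spread between tumors.

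The members and lists were chosen with earlier results of these data known. Given in full are the type 2 ligands, members with an unadjusted p under 0.05 or groups without overlap, and the member with the highest mean FPKM of each role. Other members are given by level and direction. Marker lists are given by their sums: dendritic cell markers (7 of 7 listed) summed to 18.1 to 58.2 CPM, fibroblast markers (7 of 7) to 622 to 3750 CPM and endothelial markers (5 of 5) to 92.2 to 133 CPM over the 6 tumors.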

Additional observations from a re-analysis of the deposited data

How the results depend on the processing

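The 4 members at an unadjusted p under 0.05 kept their direction in each alternative in which they were tested, with log2 fold changes of 1.37 to 2.25 for *Ccl6*, 0.91 to 1.67 for *Ccl9*, 1.77 to 3.46 for *Cxcl13* and -3.0 to -1.55 for *Cxcl5* when 1 tumor was left out. DESeq2 called 343 genes and 1 member in place of 0 by edgeR, and leaving out 1 tumor gave 0 to 182 genes (182 without control replicate 2) and 0 members. The cause was not tested. Members higher at an unadjusted p under 0.05 were 2 to 3 and members lower were 0 to 2 without 1 tumor, and a minimum of 10 counts per tumor gave 0 lower, since *Cxcl5* was not tested under it. *Ccl11* also drops out there and the type 2 ligands give no median. Of 410 comparisons of a member's fold change with the reported one, 371 kept the direction and 39 did not, and 16 of 30 members never turned. Without a tumor left out, *Ccl2* turned to -0.12 on log2(FPKM + 1) and -0.45 on log2(FPKM + 0.1), and *Cxcr2* to -0.10 and -0.13. *Ccl12* and *Cxcl14* turned to 0.04 each with upper quartile scaling, and *Ccl28* to 0.01 with DESeq2 and with RLE. Without 1 tumor, the log2 fold changes that crossed 0 ranged from -0.33 to 0.79 for *Ccl2*, -0.15 to 1.35 for *Ccl7*, -0.67 to 0.48 for *Ccl12*, -0.70 to 0.80 for *Ccl5*, -0.79 to 0.03 for *Ccl25*, -3.20 to 1.90 for *Ccl28*, -1.98 to 1.23 for *Cxcl10*, -0.91 to 0.31 for *Cxcl14*, -0.07 to 0.39 for *Cxcl16*, -1.08 to 0.99 for *Cxcl17*, -0.07 to 0.32 for *Ccr2*, -0.16 to 1.76 for *Ccr4*, -0.63 to 0.43 for *Cxcr2* and -0.20 to 0.71 for *Cxcr5*.

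Same-numbered tumors came from different mice, and their deviations correlated at -0.0296, 0.112 and -0.138. The sample titles do not say whether tumors with the same replicate number shared a batch. With the replicate number as a block, *Ccl6* had a log2 fold change of 1.86, *Ccl9* 1.34, *Cxcl13* 2.34 and *Cxcl5* -2.27 (unadjusted p of 0.116 in edgeR), which left 0 members lower at that level. *Cxcl10* turned to 0.0 and *Cxcr2* to -0.11 with the block.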
